A study of Mus musculus with 10 samples.

Results

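The 10 genes described here are the Sall, Ikaros and Bcl11 zinc finger genes of 34590 genes listed in the count files: *Sall1*, *Sall2*, *Sall3* and *Sall4*, *Ikzf1*, *Ikzf2*, *Ikzf4* and *Ikzf5*, and *Bcl11a* and *Bcl11b*. They were chosen by symbol, with earlier results of these data known. Bulk RNA-seq was performed on handpicked cells of the mouse cochlea, in 10 libraries from 5 cell types with 2 libraries each. The SCs (P26), which are supporting cells, were tdTomato-labelled cells of mice carrying Fgfr3iCreER+ and Rosa26-CAG-loxP-stop-loxP-tdTomato+. The cHCs (P33) are hair cells converted from such supporting cells, and their mice had the same Cre driver and reporter together with the transgenes Atoh1-HA+ and alpha9 AChR-EGFP+, so that SCs and cHCs differ by both transgenes and by age. According to the study, tamoxifen was given to both, the Fgfr3-driven Cre acts in Deiters' and pillar cells, and cHCs were picked for tdTomato together with EGFP. The OHCs, outer hair cells, were labelled in prestin-YFP YFP/+ knock-in mice at P7 and P22 according to the labels, although the study lists a prestin-driven inducible Cre with tdTomato for the OHCs (P7). The IHCs (P74), inner hair cells, came from Pval-Cre+ mice with the tdTomato reporter. In their titles the SC libraries 11 and 12 are from P26 and P27. The first and second OHC (P22) libraries carry the numbers 21 and 22, and the IHC libraries carry 74 and 75, so that these duplicates are 1 day apart. A letter stands before these OHC (P22) and IHC numbers. It is m in the first and f in the second OHC (P22) library, and m in both IHC libraries, so that the OHC (P22) duplicates also differ in this letter. Cells were pooled within a library, and the number of animals behind each is not given in the sources used here.

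SALL, IKZF and BCL11 proteins are C2H2 zinc finger transcription factors that mostly repress transcription. Members of the SALL and BCL11 families recruit the NuRD corepressor, a complex of nucleosome remodelling and histone deacetylase subunits, through a short motif at the very start of the protein, whereas Ikaros proteins bind DNA through an N-terminal set of zinc fingers and dimerise with each other through a C-terminal set. In the cochlea, Ikzf2 (Helios) is known as a regulator of the OHC programme and Sall1 as a developmental regulator whose human homologue is mutated in a syndrome with hearing loss, and Ikzf1 (Ikaros) is best known from lymphocytes.

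The motif can be read in the coding starts of the members. The first 30 coding bases, 5′ to 3′, of the mm9 GENCODE transcripts are printed to show which members share this start, with capitals at the 16 positions identical in all 5 transcripts that match *Sall1* at 15 or more positions. These transcripts were chosen after the sequences were seen.
Sall1-201: ATGTCgcGgaGgAAgCAagcgAagCCtCAa
Sall2-001: ATGTCtcGgcGaAAgCAacggAgaCCcCAa
Sall4-001: ATGTCgaGgcGcAAgCAggcgAagCCcCAg
Bcl11a-006: ATGTCtcGccGcAAgCAaggcAaaCCcCAg
Bcl11b-001: ATGTCccGccGcAAaCAgggcAacCCgCAg
Sall2-201: atggcgcaggaaaccgggagcagctctcga
Ikzf2-201: atggaaacagacgcaattgatggctatata

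The *Sall4* start was identical to that of *Sall1* at 24 of 30 positions, the *Sall2*-001 start at 22, the *Bcl11a* start at 21 and the *Bcl11b* start at 19. *Sall2* has a second annotated start, in transcript *Sall2*-201, that was identical at 13 positions and does not have the shared letters. The starts of the Ikaros members differed, with 6 identical positions in *Ikzf1*, *Ikzf2* and *Ikzf4* and 12 in *Ikzf5*. The shown bases lie in the first coding exon, at chr8:91566297-91566326 for *Sall1*, chr14:52947821-52947850 and chr14:52935755-52935784 for the 2 starts of *Sall2*, chr2:168592500-168592529 for *Sall4*, chr12:109241324-109241353 for *Bcl11b* and chr1:69730702-69730731 for *Ikzf2*, all on the minus strand, and at chr11:23978391-23978420 on the plus strand for *Bcl11a*. The *Sall3* start is not shown or compared here. Reads were counted per gene, so the values below do not tell the *Sall2* starts apart.

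Between 15016129 and 40518766 reads were counted on genes in each library, and a count of 0 allowed a level of up to 0.0762 to 0.264 CPM, which is 3 counts of the library's size after TMM scaling, the scale of all CPM values here. The outer hair cell markers *Slc26a5* and *Ocm* summed to 4255 to 4461 CPM in OHCs (P7), 11351 to 12027 CPM in OHCs (P22) and at most 241 CPM in any other library, and the inner hair cell marker *Slc17a8* was at 1763 to 1907 CPM in IHCs and at most 75.5 CPM elsewhere. The 9 supporting cell markers summed to 1603 to 2065 CPM in SCs, 883 to 1217 CPM in cHCs, 110 to 374 CPM in OHCs (P7) and 9.85 to 11.1 CPM in OHCs (P22). The IHC libraries also had 739 to 891 CPM of them, with *Gjb2*, a gap junction gene of supporting cells, at 611 and 468 CPM. Erythroid markers summed to 28 to 43.9 CPM in IHCs, glia markers to 47.1 to 127 CPM and spiral ganglion neuron markers to 360 to 526 CPM. In the other cell types these sums were at most 1.43, 82.5 and 191 CPM. Fibroblast markers summed to 3 and 383 CPM in OHC (P7) libraries 14 and 15. SCs, cHCs and OHCs (P7) have library numbers from 11 to 16, and OHCs (P22) and IHCs have numbers of another, later series, whose libraries are called the first and the second here, in order of their numbers. Whether the series mark a batch is not given in the sources used here, and such a batch and the cell type cannot be told apart in comparisons across the 2 series.

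Of the 10 genes, 8 passed the filter on low counts and 2, *Sall4* and *Ikzf1*, did not. In the joint edgeR test of the 5 cell types, which asks whether a gene differs anywhere among them, 3 members had an FDR under 0.05: *Sall2* (FDR = 0.00776), *Sall3* (FDR = 0.0197) and *Ikzf2* (FDR = 0.0233). Across all 16891 genes tested, 7.81% passed. *Bcl11b* (FDR = 0.0544), *Bcl11a* (FDR = 0.0935), *Ikzf4* (FDR = 0.125), *Sall1* (FDR = 0.186) and *Ikzf5* (FDR = 0.364) did not pass. *Sall2* was the exception among the 3 in limma-voom (FDR = 0.0611), where *Sall1* (FDR = 0.0497) and *Bcl11b* (FDR = 0.0397) passed and 13.5% of all genes did.

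**Figure D1:**
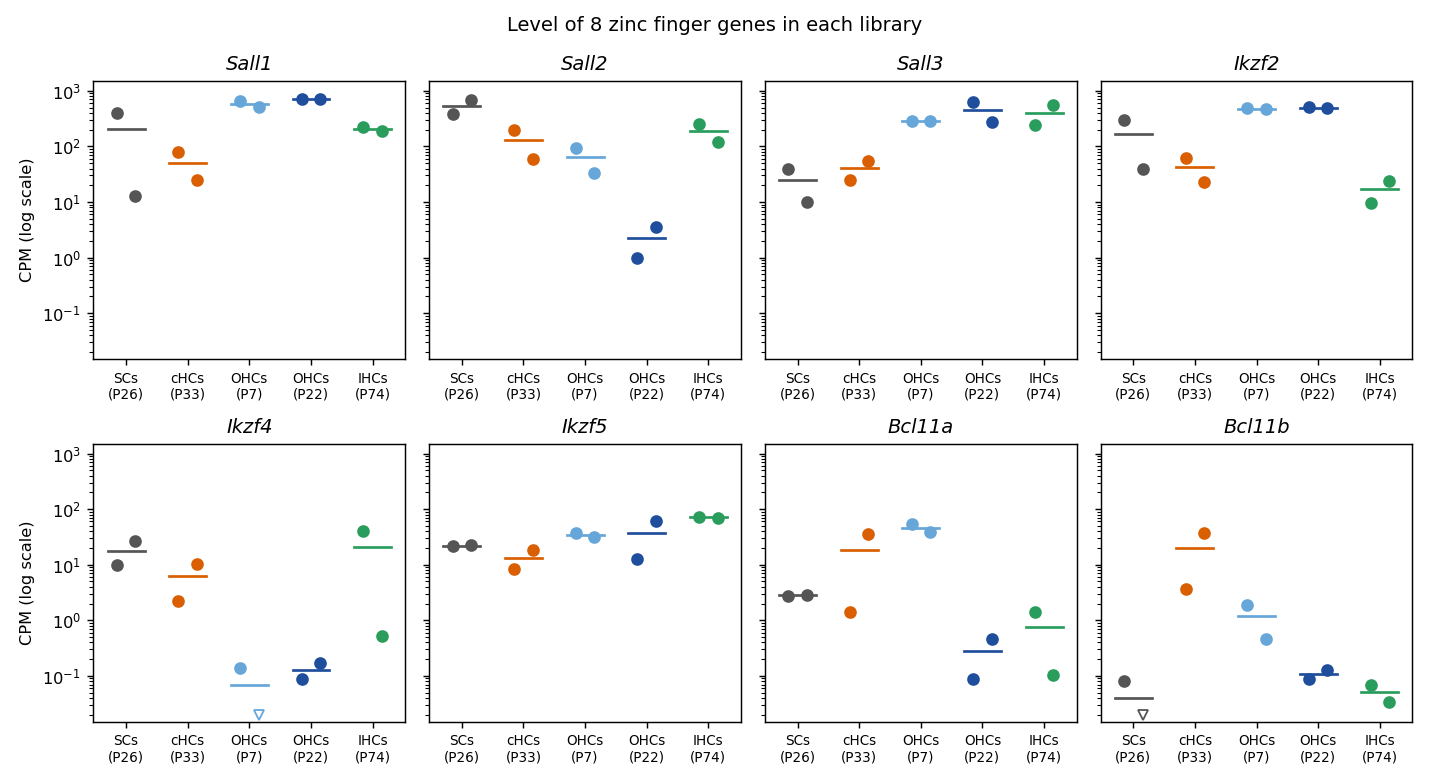
CPM after TMM scaling (y, log scale) of 8 genes in the 2 libraries of each of the 5 cell types (x), where a point is a library, a bar is the mean of 2 libraries and an open triangle at the bottom is a library with a count of 0. *Sall2* is lowest in OHCs (P22), *Sall3* is at 55.3 CPM or less in all SC and cHC libraries and at 244 CPM or more in all others, and the 2 SC points lie far apart for *Sall1* and *Ikzf2*.

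*Sall1*, a SALL factor needed for kidney and limb development, lies at chr8:91551147-91568061 on the minus strand (mm9, ENSMUSG00000031665). It was at 393 CPM in SC library 11 and 12.8 CPM in SC library 12, at 77.8 and 24.8 CPM in cHC libraries 13 and 16, and at 654 and 516 CPM in OHC (P7) libraries 14 and 15. The first and second OHC (P22) libraries had 725 and 699 CPM and the IHC libraries had 224 and 187 CPM. The OHC libraries of both ages were thus the highest and did not overlap with any other cell type, the cHC libraries were both below the IHC libraries, and the SC libraries lay on either side of all of the cHC and IHC values. The SC duplicates differed 30.8-fold, more than those of any other cell type for this gene, where the ratio of the duplicates was between 1.04 and 3.14. No pairwise difference of *Sall1* passed in edgeR. The largest, of OHCs (P22) over cHCs, was a log2 fold change of 3.80 (SE 1.16, edgeR FDR = 0.113). It passed in DESeq2 (FDR = 0.00529) and in limma-voom (FDR = 0.0467). The log2 fold change of OHCs (P7) over cHCs was 3.51 (SE 1.14, edgeR FDR = 0.307), with means of 585 ± 97.5 and 51.3 ± 37.5 CPM (SD, n = 2). Without SC library 11 or SC library 12 this fold change was the same, at 3.51. The log2 fold change of cHCs over SCs was -1.99 (SE 1.08, edgeR FDR = 0.409) and took the opposite sign, 2.01, without SC library 11. Without SC library 12 it was -2.94 with an FDR of 0.0395, so that the direction between SCs and cHCs rests on which SC library is used.

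*Sall2*, a SALL factor with known roles in eye closure and cell cycle arrest, lies at chr14:52930847-52948437 on the minus strand (mm9, ENSMUSG00000049532). The SC libraries 11 and 12 had 390 and 691 CPM, and the cHC libraries 13 and 16 had 198 and 59.2 CPM. It was at 94.3 and 33.2 CPM in OHC (P7) libraries 14 and 15, at 0.97 and 3.5 CPM in the OHC (P22) libraries, from 11 and 83 counts, and at 252 and 121 CPM in the IHC libraries. Both SC libraries were above all others and both OHC (P22) libraries below all others, while cHCs overlapped with OHCs (P7) and with IHCs. As the libraries are bulk samples of picked cells, fewer cells with the transcript and less transcript per cell cannot be told apart. In OHCs (P22) *Sall2* was lower than in SCs, with a log2 fold change of -7.89 (SE 1.08, edgeR FDR = 0.00154) and means of 2.23 ± 1.79 and 541 ± 213 CPM (SD, n = 2). It was also lower in OHCs (P22) than in cHCs (log2 fold change -5.82, SE 0.99, edgeR FDR = 0.0113) and higher in IHCs than in OHCs (P22) (log2 fold change 6.36, SE 1.01, edgeR FDR = 0.0158), the latter within 1 series of library numbers. The difference from SCs passed under all 17 alternatives that kept the files named for the libraries, and the differences from cHCs and IHCs did not pass without the first OHC (P22) library (FDR = 0.0535 and 0.0721), in limma-voom (FDR = 0.16 and 0.156) or in fits of the compared cell types alone (FDR = 0.0536 and 0.0549).

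Within OHCs, *Sall2* was lower at P22 than at P7 by a log2 fold change of -4.81 (SE 0.94) that did not pass (edgeR FDR = 0.0543). Leaving out any 1 of 8 libraries brought the FDR to between 0.013 and 0.0412, and the exceptions were OHC (P7) library 14 (FDR = 0.11) and the first OHC (P22) library (FDR = 0.242). The low-count filter was run again in the fits without 1 library, so that the genes tested differed too. The difference between the ages also did not pass in limma-voom (FDR = 0.342) or in the fit of OHCs alone (FDR = 0.2). The decline from SCs to cHCs, a log2 fold change of -2.07 (SE 0.83, edgeR FDR = 0.285), passed in limma-voom alone (FDR = 0.0372). The summed supporting cell markers, like *Sall2*, were highest in SCs and lowest in OHCs (P22). All 9 markers had counts in at least 1 IHC library, but *Fgfr3* was at 17.3 and 0 CPM there and *Prox1* at 2.32 and 7.87 CPM. Single markers differed from this order. *Fgfr3* was at 458 and 431 CPM in cHCs against 312 and 167 CPM in SCs, and *Prox1* at 247 and 293 CPM against 53.7 and 14.7 CPM. *Gjb2* was higher in both IHC libraries than in SCs, where it was at 393 and 124 CPM. Their part in the *Sall2* levels of IHCs and cHCs was not tested.

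*Sall3*, a SALL factor of limb and cranial nerve development, lies at chr18:81163115-81183317 on the minus strand (mm9, ENSMUSG00000024565). It had 39.9 and 10.1 CPM in SC libraries 11 and 12 and 25.2 and 55.3 CPM in cHC libraries 13 and 16. The OHC (P7) libraries 14 and 15 had 292 and 290 CPM, the OHC (P22) libraries had 623 and 271 CPM, and the IHC libraries had 244 and 549 CPM. All 6 libraries of native hair cells were above all 4 libraries of SCs and cHCs and the ranges overlapped within each of these sets. Compared with SCs, *Sall3* was higher in OHCs (P22) by a log2 fold change of 4.16 (SE 0.82, edgeR FDR = 0.0111). It was also higher in OHCs (P7) by 3.54 (SE 0.80, edgeR FDR = 0.0369) and in IHCs by 3.99 (SE 0.82, edgeR FDR = 0.0263). Compared with cHCs, it was higher in OHCs (P22) by a log2 fold change of 3.47 (SE 0.80, edgeR FDR = 0.0411), and the differences of 3.30 for IHCs (SE 0.79, edgeR FDR = 0.0997) and 2.85 for OHCs (P7) (SE 0.78, edgeR FDR = 0.195) did not pass. Between cHCs and SCs the log2 fold change was 0.69 (SE 0.73, edgeR FDR = 0.722), which passed under none of 17 alternatives, with FDRs from 0.364 to 1. The hair cell markers, in contrast, summed to 5110 to 6065 CPM in cHCs and to 362 to 364 CPM in SCs.

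The *Sall3* difference between OHCs (P22) and SCs passed under all 17 alternatives that kept the files named for the libraries. The others did not pass under some of them. For OHCs (P7) over SCs the FDR was 0.119 without SC library 12, 0.0522 without OHC (P7) library 14 and 0.0519 without OHC (P7) library 15, 0.0539 in limma-voom and 0.0696 in a fit of both cell types alone. For IHCs over SCs it was 0.0841 without SC library 12, 0.0671 without the second IHC library and 0.0631 with both cell types alone. For OHCs (P22) over cHCs it was 0.175 without cHC library 13, 0.0555 without cHC library 16, 0.164 without the first OHC (P22) library and 0.0665 with both alone.

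*Sall4*, which is known from embryonic stem cells and germ cells, lies at chr2:168573832-168593443 on the minus strand (mm9, ENSMUSG00000027547) and had a count of 0 in all 10 libraries. At this depth, up to 0.0762 to 0.264 CPM would not have been detected. A non-coding RNA, *Gm14261*, shares 526 exon bases with it on the opposite strand.

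Compared per length, as FPKM (CPM divided by the merged exon length in kb), the leading SALL paralog was not the same in all cell types or, in SCs, in both duplicates. *Sall1* led in SC library 11 with 49.1% of the summed *Sall* FPKM and made up 1.86% in SC library 12. *Sall2* made up 47.1 and 97% in the SC libraries and 66.4 and 46.1% in the cHC libraries, but 9.42 and 4.16% in OHCs (P7) and 0.0781 and 0.372% in OHCs (P22). *Sall1* made up between 60.4 and 76.9% in the 4 OHC libraries. In the first IHC library the 3 paralogs were nearly even, at 34.3% for *Sall1*, 37.2% for *Sall2* and 28.5% for *Sall3*, and in the second *Sall3* led at 58%. *Sall3* made up 34% in cHC library 16 and 6.66% in cHC library 13, against 3.8 and 1.12% in the SC libraries. The log2 ratio of *Sall3* to *Sall2* within a library does not depend on scaling between libraries. It was -3.29 and -6.10 in SCs, -2.98 and -0.10 in cHCs, 1.63 and 3.13 in OHCs (P7), 9.33 and 6.28 in OHCs (P22), and -0.05 and 2.18 in IHCs. The OHC libraries were all at 1.63 or more and the SC and cHC libraries all at -0.10 or less, and the IHC libraries lay between these sets and within the OHC range.

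**Figure D2:**
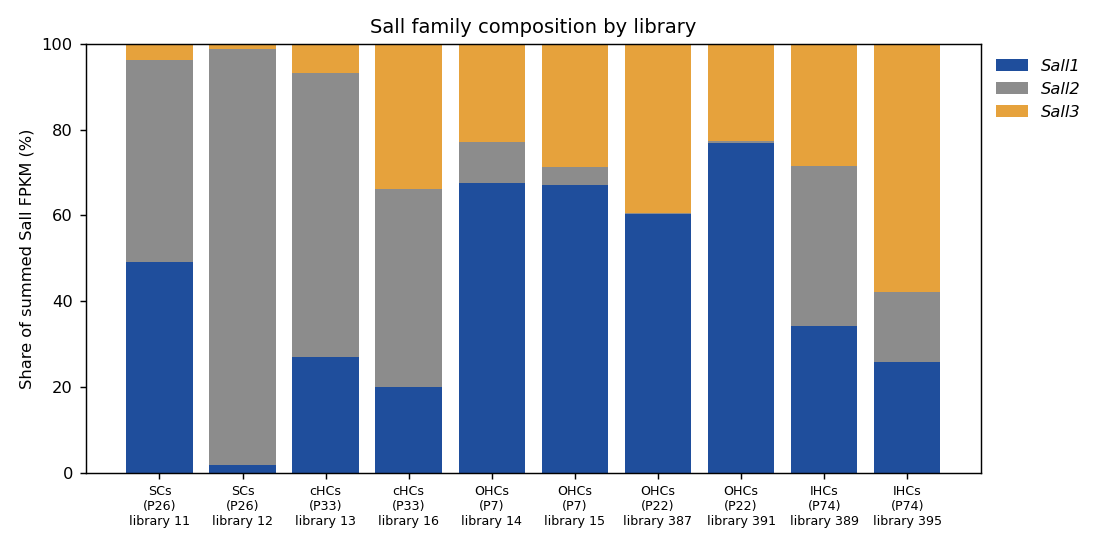
Share of the summed FPKM of *Sall1*, *Sall2* and *Sall3* (y, %) in each of the 10 libraries (x), as stacked bars that add up to 100%, with *Sall4* at 0. The grey *Sall2* part is 46.1% or more in SCs and cHCs, at most 9.42% in OHCs (P7) and at most 0.372% in OHCs (P22), and the IHC bars hold all 3 paralogs.

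*Ikzf2*, the gene of Helios, lies at chr1:69577788-69732534 on the minus strand (mm9, ENSMUSG00000025997). In SC libraries 11 and 12 it was at 296 and 39.9 CPM, and in cHC libraries 13 and 16 at 62.8 and 22.6 CPM. It was at 482 and 463 CPM in OHC (P7) libraries 14 and 15, at 502 and 491 CPM in the OHC (P22) libraries, and at 9.46 and 24.2 CPM in the IHC libraries. The 4 OHC libraries were the highest and lay close together, and the IHC libraries were low and overlapped with cHCs. *Ikzf2* was lower in IHCs than in OHCs (P22), with a log2 fold change of -4.88 (SE 0.97, edgeR FDR = 0.0349) and means of 16.8 ± 10.4 and 496 ± 7.44 CPM (SD, n = 2), within 1 series of library numbers. This difference did not pass without the first OHC (P22) library (FDR = 0.0732), without the first IHC library (FDR = 0.111) or in limma-voom (FDR = 0.0631). The like-sized difference between IHCs and OHCs (P7), -4.81 (SE 0.97), missed the threshold (edgeR FDR = 0.0724). Between the ages of OHCs the log2 fold change was 0.07 (SE 0.83, edgeR FDR = 1).

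In cHCs *Ikzf2* was at 42.7 ± 28.4 CPM (SD, n = 2), and the OHC levels were higher by log2 fold changes of 3.54 at P22 (SE 0.91, edgeR FDR = 0.0635) and 3.47 at P7 (SE 0.91, edgeR FDR = 0.185). The first of these passed under 10 of 17 alternatives. Between cHCs and SCs the log2 fold change of -1.98 (SE 0.86, edgeR FDR = 0.313) became 0.10 without SC library 11, so that *Ikzf2*, like *Sall1*, had no stable direction there. SC library 11 was high in both genes. In SC libraries 11 and 12 *Slc26a5*, the prestin gene, was at 0.531 and 0.755 CPM and *Ocm* at 3.16 and 2.71 CPM. The supporting cell markers summed to 2065 and 1603 CPM in these libraries, but single markers differed in both directions. *Gjb2* was at 393 and 124 CPM, *Jag1* at 377 and 136, *Fgfr3* at 312 and 167, *Hes1* at 195 and 83.3, and *Prox1* at 53.7 and 14.7. *Sox9* was at 242 and 402 CPM, *Cdkn1b* at 267 and 408, *Sox10* at 148 and 190, and *Sox2* at 77.1 and 77.5. The 5 fibroblast markers summed to 96.3 and 21.3 CPM, of which *Dcn* made up 96.3 and 18.7 CPM. The cause of the difference between the SC libraries was not tested.

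**Figure D3:**
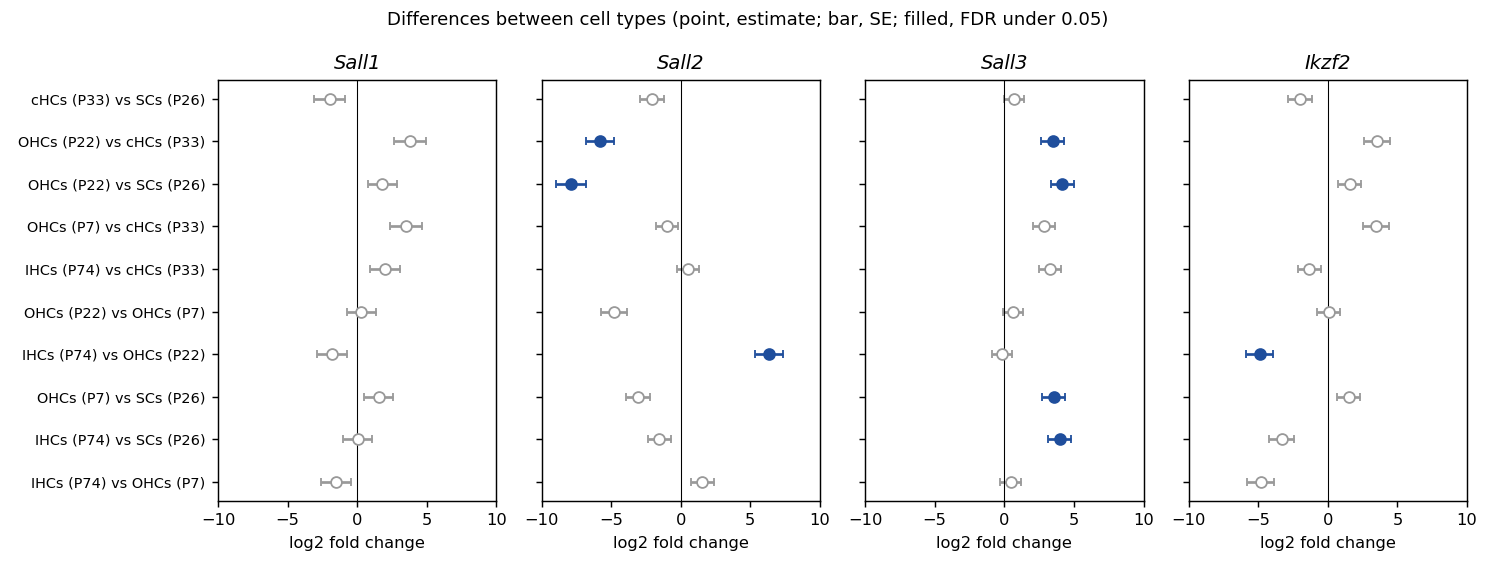
Log2 fold changes (x) of *Sall1*, *Sall2*, *Sall3* and *Ikzf2* for the 10 pairwise comparisons (y, first cell type over second), with the SE as bars and filled points for an edgeR FDR under 0.05. The filled points are 3 for *Sall2*, 4 for *Sall3*, 1 for *Ikzf2* and 0 for *Sall1*.

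*Ikzf4*, the gene of Eos, lies at chr10:128067899-128083047 on the minus strand (mm9, ENSMUSG00000002578). Its counts were 368 and 590 in SCs, 52 and 400 in cHCs, 5 and 0 in OHCs (P7), 1 and 4 in OHCs (P22), and 1212 and 15 in IHCs, or 9.77 and 26.2, 2.21 and 10.2, 0.136 and 0, 0.0882 and 0.168, and 40.8 and 0.515 CPM. All 4 OHC libraries were at or close to the limit of detection and below all other libraries, and the IHC duplicates differed 79.2-fold. The log2 fold changes over SCs were -7.79 for OHCs (P7) (SE 2.54, edgeR FDR = 0.138) and -7.04 for OHCs (P22) (SE 2.47, edgeR FDR = 0.106), and neither passed. In the joint test *Ikzf4* passed without the second IHC library (FDR = 0.0462) but not without the first (FDR = 0.126). A non-coding RNA, *Gm17336*, shares 37 exon bases with it on the opposite strand.

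*Ikzf5*, the gene of Pegasus, an Ikaros protein with a divergent DNA-binding domain, lies at chr7:138532166-138554035 on the minus strand (mm9, ENSMUSG00000040167). It was at 21.5 and 22.4 CPM in SCs, 8.42 and 18.1 CPM in cHCs, 37.7 and 32 CPM in OHCs (P7), 12.5 and 60.4 CPM in OHCs (P22), and 71 and 70.4 CPM in IHCs. The IHC libraries were above all others, and the OHC (P22) libraries overlapped with every cell type but IHCs. The difference of IHCs over cHCs, a log2 fold change of 2.41 (SE 0.96), did not pass (edgeR FDR = 0.341), nor did it under any of 17 alternatives.

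*Ikzf1*, at chr11:11585006-11672929 on the plus strand (mm9, ENSMUSG00000018654), had 1 count in cHC library 16 and 0 in the other 9 libraries. *Ikzf3*, the lymphoid Ikaros gene Aiolos and not among the 10 genes, had 42 counts in cHC library 16 and 1 in the second IHC library. The 10 immune cell markers summed to between 0.0337 and 25.8 CPM, and the pan-leukocyte marker *Ptprc* was at most 0.176 CPM.

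Per length, *Ikzf2* made up 80.8 to 95.4% of the summed Ikaros FPKM in the 4 OHC libraries and 4.5 and 15.1% in the IHC libraries, where *Ikzf5* made up 65 and 84.4%. SC library 11, with 83.9% of *Ikzf2*, lay within the OHC range, and SC library 12, with 32.1%, and the cHC libraries, with 76.1 and 30.7%, lay between the IHC and OHC ranges.

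*Bcl11a*, known as a repressor of fetal globin genes and in cortical neurons, lies at chr11:23978056-24074123 on the plus strand (mm9, ENSMUSG00000000861). It had 2.74 and 2.89 CPM in SCs, 1.4 and 35.9 CPM in cHC libraries 13 and 16, 52.9 and 38.1 CPM in OHCs (P7), 0.0882 and 0.463 CPM in OHCs (P22), and 1.41 and 0.103 CPM in IHCs. The OHC (P7) libraries and cHC library 16 were high, and both mature hair cell types were below SCs. From P7 to P22 the log2 fold change in OHCs was -7.29 (SE 2.14, edgeR FDR = 0.181), from 45.5 ± 10.4 to 0.276 ± 0.265 CPM (SD, n = 2). The 2 groups did not overlap, and the difference passed under 2 of 16 alternatives. The cHC duplicates differed 25.6-fold, and without cHC library 13 the joint test passed (FDR = 0.04). A processed transcript, *4930538E20Rik*, shares 316 exon bases with *Bcl11a* on the opposite strand, and whether counting used the strand is not given in the sources used here.

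*Bcl11b*, a regulator of T cell and of neuronal development, lies at chr12:109148613-109241812 on the minus strand (mm9, ENSMUSG00000048251). The cHC libraries 13 and 16 had 87 and 1460 counts (3.7 and 37.1 CPM), whereas SCs had 3 and 0 counts, OHCs (P22) 1 and 3, and IHCs 2 and 1. The OHC (P7) libraries 14 and 15 had 69 and 7 counts (1.88 and 0.47 CPM). Both cHC libraries were above all others, and cHC library 16 was 10-fold above cHC library 13. Over the summed counts, the ratio of cHCs to SCs was 493 (95% exact interval 169 to 2395). It was 216 (84.1 to 793) for cHCs to OHCs (P22) and 482 (165 to 2341) for cHCs to IHCs. These intervals treat each read as an independent draw, although the cDNA was amplified before sequencing. They do not cover the spread between libraries. Of the 1547 counts in cHCs, 1460 come from cHC library 16, and without it the ratio of cHCs to SCs was 74.2 (24.6 to 367). Without that library the log2 fold change of cHCs over SCs was 6.31 (edgeR FDR = 0.689) in place of 8.75, and the joint FDR was 0.463. In edgeR none of these differences passed with all libraries (FDR = 0.158 for SCs, 0.148 for OHCs (P22) and 0.222 for IHCs). In limma-voom those from SCs (FDR = 0.0252) and from IHCs (FDR = 0.0374) did. The T cell marker *Cd3e* had a count of 0 in both cHC libraries. In cHC library 16 the immune cell marker *C1qa* had 144 counts (3.66 CPM), *C1qb* had 30 and *Ikzf3* had 42. The 10 immune cell markers summed to 0.936 and 4.47 CPM in cHC libraries 13 and 16. Their part in the *Bcl11b* levels was not tested.

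Over the 10 pairwise comparisons, 8 of 80 tests of the 8 members passed in edgeR, against 32 in DESeq2 and 11 in limma-voom. The background was the share of all tested genes that passed, and over the 10 comparisons it was 2.28% of the tests in edgeR, 12.5% in DESeq2 and 4.74% in limma-voom. Of the 8 members, 2 passed for OHCs (P22) against SCs, where 8.02% of all genes did. Likewise 2 passed for OHCs (P22) against cHCs (3.18% of all genes), 2 for IHCs against OHCs (P22) (1.46%), 1 for OHCs (P7) against SCs (3.41%) and 1 for IHCs against SCs (2.65%). *Sall2* and *Sall3* account for 7 of the 8 calls. Several of the calls involve OHCs (P22), whose libraries had the highest shares of reads in rows without a gene, 72.1 and 66.8%. The first OHC (P22) library also had the smallest size after TMM scaling, 11342160 reads. These comparisons share libraries and are not independent of each other.

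In 5 comparisons no member passed in edgeR. For cHCs against SCs, where 1.84% of all genes passed, 3 members had an unadjusted p under 0.05, 1 passed in DESeq2 and 2 in limma-voom. For OHCs (P7) against cHCs (0.343% of all genes) these counts were 4, 4 and 1, and for IHCs against cHCs (0.924%) they were 4, 3 and 1. For OHCs (P22) against OHCs (P7) (0.551%) they were 2, 2 and 0, and for IHCs against OHCs (P7) (0.379%) they were 3, 3 and 0. When cell types were ordered by each member's mean level, 0 of 32 neighbouring pairs differed by an edgeR FDR under 0.05, although the largest *Sall2* step, from OHCs (P7) to OHCs (P22), had an FDR of 0.0543.

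Of 20 genes of corepressor subunits and *Ikzf3* listed as known partners, 19 were tested. In the joint test 1 passed, *Chd5*, a neuronal NuRD remodelling subunit (edgeR FDR = 0.0346), where 7.81% of all genes did. It was at 0.106 and 0 CPM in SCs, 7.66 and 63.9 CPM in cHCs, 0.109 and 0.134 CPM in OHCs (P7), 1.23 and 2.57 CPM in OHCs (P22) and 15.7 and 14.1 CPM in IHCs, and no pairwise difference of it passed. *Ctbp2*, which encodes a corepressor and, from another promoter, the synaptic ribbon protein Ribeye, was at 1.99 and 7.33 CPM in SCs, 38.8 and 31.4 CPM in cHCs, 99.6 and 94.1 CPM in OHCs (P7), 112 and 75 CPM in OHCs (P22) and 38.8 and 103 CPM in IHCs. All hair cell libraries were above both SC libraries. It was higher than in SCs by log2 fold changes of 4.38 in OHCs (P7) (SE 0.91, edgeR FDR = 0.0249), 4.33 in OHCs (P22) (SE 0.91, edgeR FDR = 0.0151) and 3.93 in IHCs (SE 0.90, edgeR FDR = 0.0441), and gene counts do not tell its products apart. It was the 1 of 19 genes that passed in these 3 comparisons, where 3.41%, 8.02% and 2.65% of all genes did. The other 17 tested genes, which include *Chd4*, *Hdac1*, *Hdac2* and the *Mta* and *Rbbp* subunits, did not pass in any comparison. The median log2 fold change of the list lay between -0.43 and 0.50 over the 10 comparisons, against -0.1854 to 0.0294 for all tested genes.

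The genes with the most similar pattern were sought by the root mean square difference of log2 CPM over the 10 libraries, each gene centred on its mean. For *Sall2* they were *Lamb2* (0.63), *Tmod1* (0.66) and *Ctnnd1* (0.67), where the pattern of *Sall2* itself had a root mean square of 2.83. *Lamb2* was at 72.6 and 60.5 CPM in SCs, 27.1 and 6.02 CPM in cHCs, 19.9 and 5.1 CPM in OHCs (P7), 0 and 0.126 CPM in OHCs (P22), and 46.9 and 22.2 CPM in IHCs. *Mtmr11* (0.63), *Nbeal1* (0.70) and *Aftph* (0.72) were most like *Sall3*, whose own value was 1.94. For *Ikzf2*, with 2.13, they were *Six2* (0.96), *Gabarapl1* (0.96) and *Car2* (0.97). *Six2* was at 823 and 913 CPM in OHCs (P7), 597 and 540 CPM in OHCs (P22), 5.52 and 30.6 CPM in IHCs, and 72.1 and 13.9 CPM in SC libraries 11 and 12. These genes were picked for likeness over the same 10 libraries, so their shared levels are not a separate observation.

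**Figure D4:**
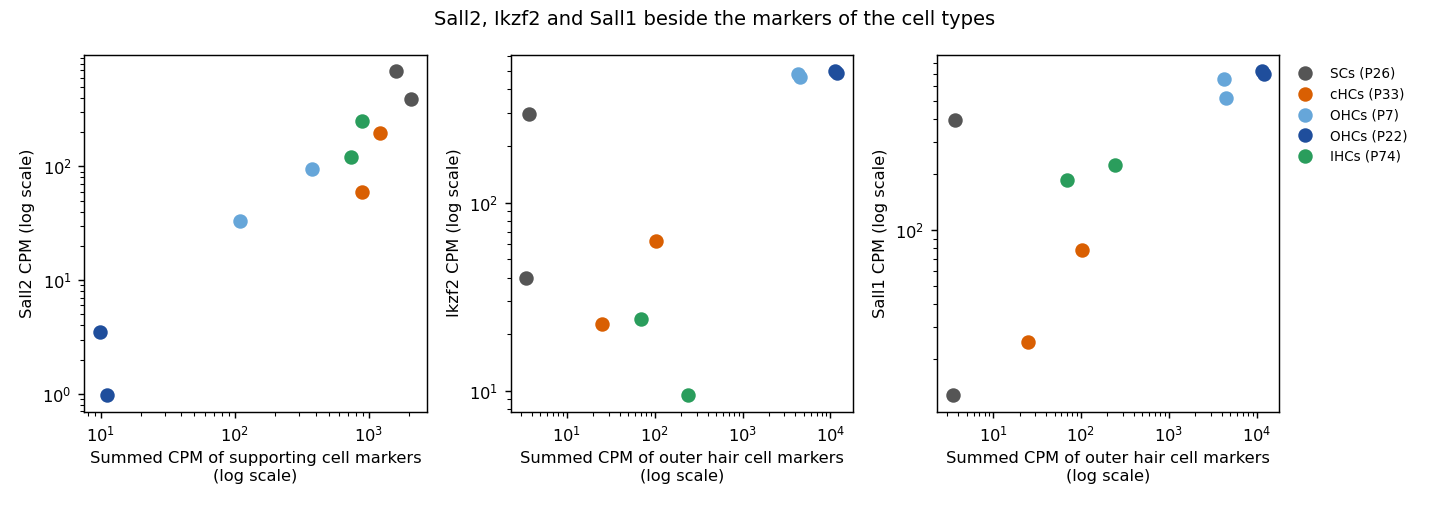
CPM of *Sall2*, *Ikzf2* and *Sall1* (y, log scale) against the summed CPM of supporting cell markers for *Sall2* and of outer hair cell markers for the others (x, log scale), where a point is a library and the colour is the cell type. *Sall2* was highest in the SC libraries, at 1603 CPM or more of the supporting cell markers, and lowest in OHCs (P22), at 11.1 CPM or less. The SC library with 296 CPM of *Ikzf2* and 393 CPM of *Sall1* had 3.69 CPM of outer hair cell markers, and the other SC library had 3.46 CPM.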

How the data were processed

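The authors purified total RNA from handpicked labelled cells, amplified cDNA by single primer isothermal amplification, which copies cDNA linearly, and sequenced paired-end reads. Reads were called with CASAVA 1.7, trimmed with Cutadapt, mapped to mm9 with STAR and BWA and counted with HTSeq, without versions given for these. The deposited files hold raw counts per gene symbol, which were analysed as deposited. Rows that name no gene took 44.2 to 72.1% of the reads of a library and were left out. The share was highest in the OHC (P22) libraries, at 72.1 and 66.8%, against at most 60% in any other library.

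For 4 of 10 sample records the attached file is named for another library. Each library was taken from the file named for it, and for all 10 this file was proportional to the column of that library number in the study's normalised table. The files as attached were an alternative.

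Counts were tested with edgeR 4.0.16 in R 4.3.3: TMM scaling, filterByExpr by cell type, quasi-likelihood F-tests, 2-sided for pairs, in 1 model of all 10 libraries (5 residual degrees of freedom, common dispersion 1.12), with Benjamini-Hochberg adjustment (FDR) over 16891 genes and a threshold of 0.05. For the SE, the log2 fold change was divided by the root of F, without its sign. The TMM factor of the first OHC (P22) library was 0.5825 and those of the others were between 0.9298 and 1.199. Sequences and gene models are from GENCODE (mm9). The ratios of summed counts have exact binomial intervals at 95%. Similar genes were sought from edgeR's log2 CPM (prior count 2). The tests were tried on simulated data. The summaries and plots used Python 3.11.15, numpy 2.4.6, pandas 2.3.3, scipy 1.17.1 and matplotlib 3.10.9.

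Alternatives were DESeq2 1.42.0 (likelihood-ratio test for the joint result, without outlier handling or independent filtering), limma-voom 3.58.1 (the study's method), edgeR with DESeq2 size factors, no low-count filter, at least 10 counts throughout, fits restricted to the compared cell types, the attached files, and leaving out each library. Fits without 1 library applied the low-count filter anew and tested 18529 to 19162 genes, against 16891 in the main fit. A block for the form of the sample title was added after seeing the data. The members, marker genes and partner list were chosen with earlier results of these data known. All 10 members are named in every library, together with partner genes that passed and *Ikzf3*, and the 3 genes most similar to each member that passed the joint test. Replicates are the 2 libraries of a cell type, and p-values measure the spread between them. Protein sequences were not used here.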

Additional observations from a re-analysis of the deposited data

How the results depend on the processing

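With 2 libraries a cell type, the calls of single members depend on the spread shared over the fit. They also depend on the genes that the filter lets through, which differ between some of the alternatives. The *Sall2* and *Sall3* differences between OHCs (P22) and SCs passed under all 17 alternatives that kept the files named for the libraries, and the joint tests of *Sall3* and *Ikzf2* under 16 of 16. With DESeq2 size factors in edgeR, none of the 42 named results changed direction or call. The library numbers differ between all cell types and pair none. The sample titles of SCs, cHCs and OHCs (P7) come in 2 forms, 1 library of each cell type having each, and this form was added as a replicate block after seeing the data. The deviations from the cell type means of libraries with the same form had correlations of 0.03, 0.04 and -0.02 across 16891 genes, so the form was not taken as a pairing. With the block, 3 members passed in the joint test (1194 of all genes, against 1320) and 8 of 80 pairwise tests did, and no named result changed its call. The cause of the changes below was not tested.

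In the joint test, 3 members passed, against 6 with DESeq2 and 7 without a filter on low counts, where the counts over all genes were 1320, 4396 and 4067. Over the 10 pairwise comparisons, 32 of 80 tests of members and 12.5% of those of all genes passed with DESeq2, 25 of 90 and 4.97% without a filter, 14 of 50 and 3.54% with a minimum of 10 counts throughout, and 4 of 75 and 2.03% in fits of the compared cell types alone, against 8 of 80 and 2.28%. DESeq2 called 1 member for cHCs against SCs, 7 for OHCs (P22) against cHCs, 4 for OHCs (P7) against cHCs, 3 for IHCs against cHCs, 2 for OHCs (P22) against OHCs (P7), 4 for OHCs (P7) against SCs, 2 for IHCs against SCs and 3 for IHCs against OHCs (P7). With limma-voom the counts were 2 for cHCs against SCs, 1 for OHCs (P7) against cHCs, 1 for IHCs against cHCs and 0 for IHCs against OHCs (P22), where 3 members passed in DESeq2 and 3 had an unadjusted p under 0.05 in edgeR. Without a filter they were 1 for cHCs against SCs, 5 for OHCs (P22) against cHCs, 4 for OHCs (P22) against SCs, 3 for OHCs (P7) against cHCs, 2 for IHCs against cHCs, 2 for OHCs (P22) against OHCs (P7), 3 for OHCs (P7) against SCs, 2 for IHCs against SCs and 1 for IHCs against OHCs (P7). A minimum of 10 counts in every library, which leaves 5 members, gave 1 for IHCs against cHCs, 1 for OHCs (P22) against OHCs (P7), 2 for OHCs (P7) against SCs, 2 for IHCs against SCs and 1 for IHCs against OHCs (P7). Fits of the compared cell types alone, with fewer samples, gave 0 for OHCs (P22) against cHCs, 1 for IHCs against OHCs (P22), 0 for OHCs (P7) against SCs, 0 for IHCs against SCs and 1 for IHCs against OHCs (P7).

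Leaving out 1 library at a time gave 3 to 5 members in the joint test, 0 to 1 for cHCs against SCs, 0 to 4 for OHCs (P22) against cHCs, 2 to 4 for OHCs (P22) against SCs, 0 to 2 for OHCs (P7) against cHCs, 0 to 1 for IHCs against cHCs, 0 to 1 for OHCs (P22) against OHCs (P7), 0 to 2 for IHCs against OHCs (P22), 0 to 2 for OHCs (P7) against SCs, 0 to 2 for IHCs against SCs and 0 to 1 for IHCs against OHCs (P7). The log2 fold change of cHCs over SCs lay between -3.04 (without cHC library 13) and 2.01 (without SC library 11) for *Sall1*, and between -2.90 and 0.10 without the same libraries for *Ikzf2*, so that both reversed without SC library 11.

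With the files as attached to the records, 0 of all 16891 genes passed in the joint edgeR test and in each pairwise comparison, where 10.7% of the joint and 7.84% of the pairwise tests had an unadjusted p under 0.05 (5 of 8 and 23 of 80 for members). Thus 0 members passed in the joint test, for OHCs (P22) against cHCs, for OHCs (P22) against SCs, for IHCs against OHCs (P22), for OHCs (P7) against SCs and for IHCs against SCs. Log2 fold changes that reversed there were those of *Sall1* for cHCs over SCs (3.33), OHCs (P7) over cHCs (-0.42) and IHCs over cHCs (-1.14), of *Ikzf2* for cHCs over SCs (2.89) and OHCs (P7) over cHCs (-0.59), and of *Bcl11b* for cHCs over SCs (-2.76). In this assignment the SC, cHC and OHC (P7) groups each hold at least 1 file named for another cell type.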

Other observations

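*Sall1* and *Ikzf2* were each highest in the OHC libraries but parted in IHCs. The log2 ratio of *Sall1* to *Ikzf2* CPM within a library was 0.41 and -1.64 in SC libraries 11 and 12, 0.31 and 0.14 in cHCs, 0.44 and 0.16 in OHCs (P7), and 0.53 and 0.51 in OHCs (P22). In IHCs it was 4.57 and 2.95, above all other libraries, with *Sall1* at 206 ± 26.5 CPM and *Ikzf2* at 16.8 ± 10.4 CPM (SD, n = 2). This ratio was looked at after the values were seen and was not tested. It mixes gene lengths, so that its differences between libraries and not its size can be read.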
